A study of Mus musculus with 8 samples.

Results

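Serine, glycine and proline can be made inside the cell from glycolytic carbon and glutamate, and 9 enzymes of these routes were examined in SV-LECs, a mouse lymphatic endothelial line, with and without TGFβ1. The genes were Phgdh, Psat1, Psph, Shmt1, Shmt2, Mthfd2, Pycr1, Aldh18a1 and Prodh, each taken as the row of the count table with that symbol. All 9 were present among 55471 genes, and all 9 were among the 13818 genes with enough reads to be tested. SV-LECs are SV40-immortalized cells derived from adventitial tissue of the mesentery, and they were grown in high-glucose DMEM with serum. The untreated group had 4 libraries and received no agent, and the TGFβ1 group had 4 libraries from cells kept with TGFβ1 at 10 ng/ml for 72 h. The methods describe the 4 samples of a group as technical replicates of a single line, so p-values cover the spread between such samples and not between independent cultures.

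In the serine pathway, Phgdh oxidises the glycolytic intermediate 3-phosphoglycerate, Psat1 transfers an amino group from glutamate, and Psph removes the phosphate to give serine. Shmt1 in the cytosol and Shmt2 in mitochondria convert serine to glycine and pass a carbon unit to folate, which Mthfd2 oxidises further in mitochondria. Proline is built from glutamate by Aldh18a1 and then by the Pycr reductases, and Prodh begins its breakdown. Collagen is the usual point of contact between these routes and TGFβ1, because the triple helix repeats glycine in each of its short units and has proline or hydroxyproline at many of the others. DMEM supplies serine and glycine but no proline.

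Each of the 9 genes fell with TGFβ1, and none rose. Psat1 fell the most, 3.17-fold, and Aldh18a1 the least, 1.47-fold. The genes separated by size of change, with Phgdh, Psph, Shmt2, Mthfd2 and Prodh between 2.22- and 2.29-fold lower, and with Shmt1 and Pycr1 1.51- and 1.60-fold lower. In all 9 genes, the highest treated library lay below the lowest untreated library. The response to TGFβ1 was broad, since 75.6% of all tested genes passed an FDR of 0.05, 38.0% lower and 37.6% higher. In 35.1% of genes all treated libraries lay below all untreated ones, and in 34.7% all lay above. Against that background, the median log2 fold change was -1.16 over the 9 genes and -0.006 over all genes tested. An FDR under 0.05 with a log2 point estimate below -1 was seen in 6 of the 9, Prodh among them. The same held for 6.56% of tested genes.

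The libraries held between 18952504 and 26386941 counts, and 3 counts corresponded to 0.113 to 0.162 CPM (counts scaled to a common library size by TMM), a limit that covers counting error only. The known TGFβ1 target Ccn2 rose from 219 to 916 CPM. Of the lymphatic markers, Prox1, Lyve1, Ccl21a and Reln had at most 3 counts in every library, whereas Pdpn (342 CPM untreated) and Flt4 (21.6 CPM untreated) were detected. Of 9 endothelial markers, Cdh5, Tie1, Emcn and Erg also had at most 3 counts in every library. Among the others, 4 had enough reads to be tested, and 3 of these were higher with TGFβ1 and 1 did not pass (37.6% of all tested genes were higher). Several transcripts that usually define the labelled cell type thus had few or no reads, while others were detected. Summed over 9 endothelial markers the level was 73.3 to 80.8 CPM untreated and 166 to 173 CPM treated. Of 6 leukocyte markers, 5 had no more than 3 counts everywhere, and Cd68 rose from 6.96 to 15.9 CPM (log2 fold change 1.19, edgeR FDR = 6.64e-34), which took the sum of the list from 5.88 to 7.82 CPM untreated to 14.9 to 17.0 CPM treated. The 6 epithelial markers summed to 34.2 to 40.7 CPM untreated and 38.2 to 45.2 CPM treated. Only 3 of them had enough reads to be tested, and 2 of these were higher and 1 did not pass (median log2 fold change 1.99). Markers of smooth muscle and fibroblasts summed to 1331 to 1437 CPM in untreated and 2330 to 2430 CPM in treated libraries. Of these 8 markers, 6 were higher and 2 lower, beside 37.6% and 38.0% of all tested genes. The part of this shift in the results was not tested. Bulk RNA cannot tell fewer expressing cells from less RNA per cell.

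The 3 enzymes that make serine were all strongly lowered. Psat1 (ENSMUSG00000024640, GRCm38 chr19:15904678-15947337, minus strand) had 642, 644, 689 and 682 CPM in the untreated libraries and 216, 202, 204 and 216 CPM in the treated ones. The groups were far apart, and the treated libraries lay close together. Its mean went from 664 ± 24.7 to 210 ± 7.52 CPM (SD, n = 4 each), a log2 fold change of -1.66 ± 0.0436 (SE, FDR = 2.13e-303 by the likelihood ratio test of edgeR, Benjamini-Hochberg adjusted). Only 2.50% of tested genes had a lower log2 fold change.

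Phgdh, the entry enzyme of the route (ENSMUSG00000053398, chr3:98313170-98339990, minus strand), had 180, 167, 184 and 174 CPM untreated and 80.9, 74.6, 79.5 and 82.4 CPM with TGFβ1. The lowest untreated library still held more than the sum of any pair of treated libraries. The log2 fold change was -1.15 ± 0.0484 (SE, edgeR FDR = 4.84e-122). Psph, which completes the route (ENSMUSG00000029446, chr5:129765558-129787449, minus strand), had 149, 146, 150 and 134 CPM untreated and 61.3, 62.8, 63.9 and 65.0 CPM with TGFβ1. Its treated libraries were the tightest of the 3 genes, and its log2 fold change was -1.20 ± 0.0494 (SE, edgeR FDR = 4.72e-127). Psph shares 452 of its 4329 annotated exon bases (10.4%) with Cct6a on the other strand. Cct6a was at 490.5 CPM untreated and 436.9 CPM treated, and a share of its reads in the Psph value was not tested. Summed over Phgdh, Psat1 and Psph, the untreated libraries held 956 to 1023 CPM and the treated libraries 339 to 363 CPM.

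**Figure D1:**
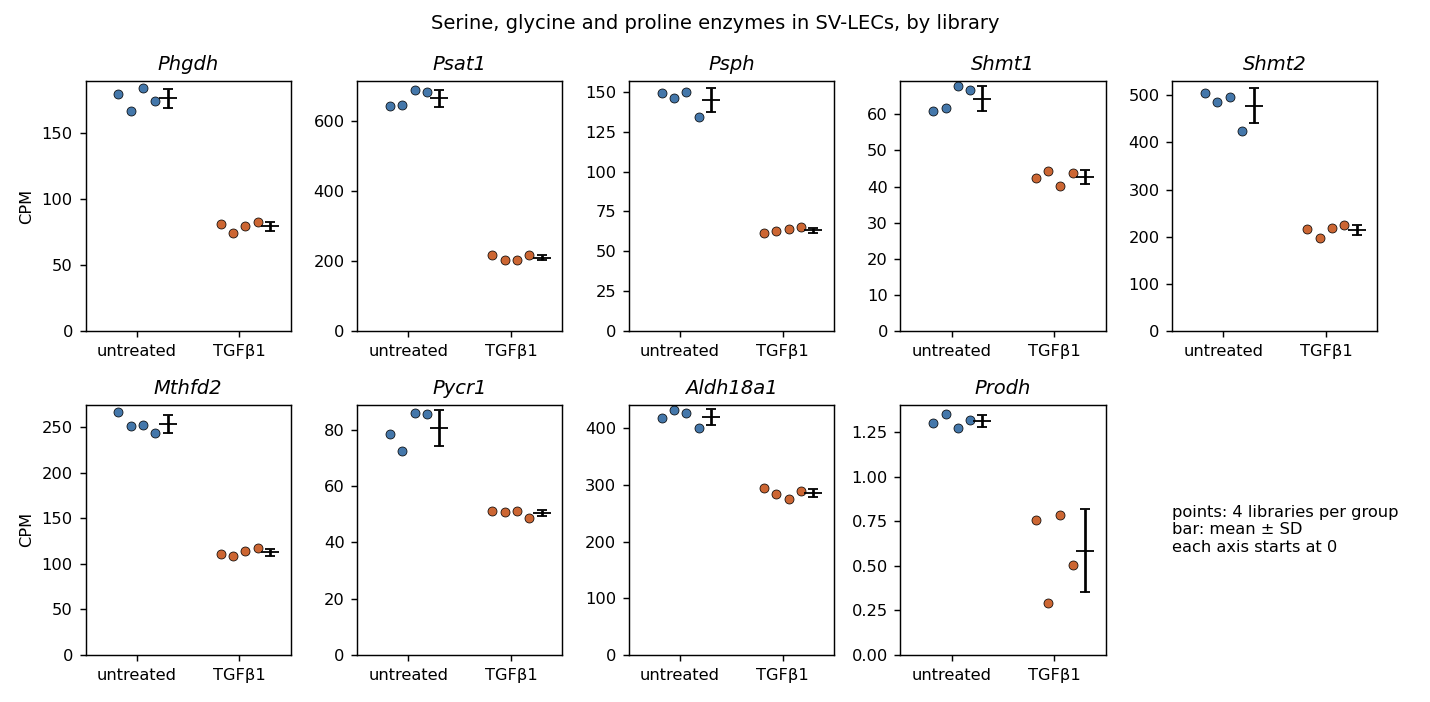
CPM of the 9 genes in each library, with points for libraries and bars for group mean and SD (n = 4 per group, a separate linear axis from 0 for each gene). In every panel the 4 treated points lie below the 4 untreated points, and Psat1 shows the widest gap, from a mean of 664 to 210 CPM.

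The enzymes that turn serine into glycine and load folate fell too, and the mitochondrial ones fell further than the cytosolic one. Shmt2, the mitochondrial serine hydroxymethyltransferase (ENSMUSG00000025403, chr10:127517123-127522444, minus strand), had 504, 486, 497 and 425 CPM untreated and 217, 198, 219 and 224 CPM treated. Untreated library 4 was the lowest of its group and was still far above every treated library. The log2 fold change was -1.16 ± 0.0582 (SE, edgeR FDR = 8.21e-85). Mthfd2, the mitochondrial methylenetetrahydrofolate dehydrogenase (ENSMUSG00000005667, chr6:83305691-83325908, minus strand), had 267, 251, 253 and 244 CPM untreated and 111, 109, 114 and 118 CPM treated. Its log2 fold change of -1.17 ± 0.0447 (SE, edgeR FDR = 2.03e-146) was close to that of Shmt2. The ratio of Shmt2 to Mthfd2 in CPM was 1.74 to 1.96 in untreated and 1.81 to 1.96 in treated libraries, so the 2 ranges overlapped.

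Shmt1, the cytosolic isozyme (ENSMUSG00000020534, chr11:60788104-60811718, minus strand), had 61.0, 61.8, 67.8 and 66.7 CPM untreated and 42.4, 44.2, 40.1 and 43.8 CPM with TGFβ1. The groups were separate but closer than for Shmt2, and the log2 fold change was -0.59 ± 0.0564 (SE, edgeR FDR = 2.88e-25). Its 95% interval, -0.70 to -0.48, lay above that of Shmt2, -1.27 to -1.04, and the ratio of Shmt1 to Shmt2 in CPM was 0.121 to 0.157 untreated and 0.183 to 0.223 treated, without overlap. Per kilobase of exon, Shmt2 made up 90.2% ± 1.02 (SD, n = 4) of the sum of both isozymes untreated and 86.2% ± 0.996 treated, while that sum went from 170 to 79.9 CPM per kb. The exons of Shmt1 overlap Smcr8 over 184 of 3883 bases (4.74%), and those of Shmt2 overlap Ndufa4l2 over 32 of 3109 bases (1.03%). Smcr8 was higher with TGFβ1 (64.6 to 100 CPM) and so was Ndufa4l2 (0.529 to 2.89 CPM), in the direction opposite to Shmt1 and Shmt2.

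Both enzymes of proline synthesis fell, Aldh18a1 the least of the 9 and Pycr1 by somewhat more than Shmt1 in the point estimate. Aldh18a1, which reduces glutamate toward pyrroline-5-carboxylate (ENSMUSG00000025007, chr19:40550257-40588463, minus strand), had 419, 433, 427 and 401 CPM untreated and 294, 285, 276 and 289 CPM treated. The groups did not overlap, and the log2 fold change was -0.55 ± 0.0407 (SE, edgeR FDR = 4e-41). When the test asked for a change beyond 0.5 on the log2 scale, which 13.1% of tested genes passed in the lower direction, 8 of the 9 genes passed and Aldh18a1 did not (FDR = 0.0932 by edgeR's glmTreat). Pycr1, a mitochondrial reductase of the last step (ENSMUSG00000025140, chr11:120635712-120643769, minus strand), had 78.6, 72.5, 85.9 and 85.7 CPM untreated and 51.3, 50.7, 51.2 and 48.8 CPM treated. The untreated libraries of Pycr1 were more spread than the treated ones, and the log2 fold change was -0.67 ± 0.0609 (SE, edgeR FDR = 9.26e-28). The ratio of Pycr1 to Aldh18a1 was 0.167 to 0.213 untreated and 0.169 to 0.185 treated, again overlapping.

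Prodh, the mitochondrial enzyme that oxidises proline (ENSMUSG00000003526, chr16:18060357-18090203, minus strand), was close to the limit of detection. It had 27, 36, 29 and 26 counts in the untreated libraries and 14, 6, 16 and 13 counts in the treated ones. In CPM these were 1.30, 1.35, 1.27 and 1.32 against 0.757, 0.292, 0.787 and 0.505. The log2 fold change was -1.18 ± 0.253 (SE, edgeR FDR = 2.17e-06), with a 95% interval of -1.67 to -0.68 that was the widest of the 9. The next enzyme of proline breakdown, Aldh4a1, which makes glutamate from pyrroline-5-carboxylate, moved the other way. Aldh4a1 had 11.9, 9.99, 11.7 and 13.3 CPM untreated and 50.1, 55.4, 51.6 and 48.4 CPM treated, a log2 fold change of 2.14 ± 0.0787 (SE, edgeR FDR = 7.18e-164). The breakdown pair thus changed in opposite directions, at levels well below those of Aldh18a1.

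**Figure D2:**
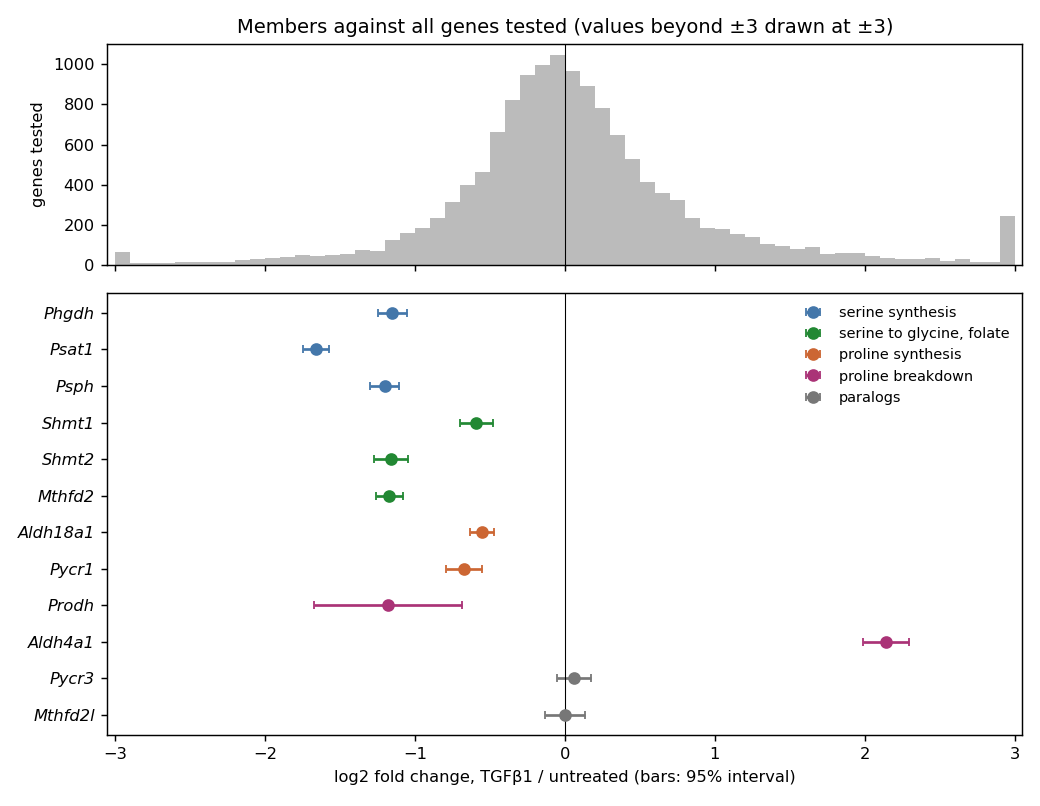
Log2 fold changes (TGFβ1 over untreated) of the 9 genes, of Aldh4a1 and of 2 paralogs with 95% intervals, under a histogram of all 13818 genes tested. The 9 genes lie between -1.66 and -0.55, Aldh4a1 lies at 2.14, and the intervals of Pycr3 and Mthfd2l include 0.

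Pycr3 and Mthfd2l, close relatives of Pycr1 and Mthfd2, did not pass the test. Pycr3, a cytosolic pyrroline-5-carboxylate reductase named Pycrl in the table, was at 24.2 CPM untreated and 25.2 CPM treated (log2 fold change 0.06, edgeR FDR = 0.376). Mthfd2l, another mitochondrial enzyme of the Mthfd2 step, was at 17.8 CPM in both groups (0.00, edgeR FDR = 0.984), and Prodh2, which acts on hydroxyproline, had at most 2 counts in any library. Per kilobase of exon, Pycr1 itself went from 20.5 to 12.8 CPM per kb. Mthfd2 supplied 96.5% ± 0.162 of the sum of Mthfd2 and Mthfd2l untreated and 92.4% ± 0.222 treated (SD, n = 4 each).

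On the per-length scale, the order of the 9 genes changed at the top and held below. In untreated cells Psat1 (156 ± 5.81 CPM per kb) and Shmt2 (154 ± 11.6) were highest and within each other's spread. Aldh18a1 (103 ± 3.35) followed, and then Mthfd2 (72.8 ± 2.8) and Phgdh (70.8 ± 2.93), which again were within each other's spread. Psph (33.5), Pycr1 (20.5) and Shmt1 (16.6) were lower, and Prodh was last at 0.168 CPM per kb. With TGFβ1, Aldh18a1 (70.3 ± 1.86) and Shmt2 (68.9 ± 3.62) led and were within each other's spread, and Psat1 came next at 49.3 ± 1.77 CPM per kb. The ratio of Psat1 to Aldh18a1 in CPM showed this most plainly, with 1.49 to 1.70 in untreated and 0.707 to 0.747 in treated libraries. The ratio of Phgdh to Psat1 went from 0.255 to 0.280 untreated to 0.370 to 0.389 treated, because Psat1 fell further. Phgdh, Psph, Shmt2 and Mthfd2 kept to each other, and all 6 of their pairwise ratios overlapped between the groups.

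Other enzymes of folate metabolism did not move as a block. Of 16 tested, 5 were higher, 6 were lower and 5 did not pass, and the median log2 fold change was -0.02. These counts were near the shares over all tested genes, 37.6% higher and 38.0% lower. Aldh1l2, the mitochondrial formyltetrahydrofolate dehydrogenase, fell from 248 ± 4.75 to 114 ± 5.82 CPM (log2 fold change -1.12, edgeR FDR = 4.97e-136), and Mthfd1l, the mitochondrial formate-producing synthetase, fell from 89.6 to 58.3 CPM (-0.62). The cytosolic relatives went up instead. Aldh1l1 rose from 0.778 to 7.38 CPM (3.21, edgeR FDR = 1.11e-76), and Mthfd1 rose from 144 to 174 CPM (0.28). Slc19a1, the reduced folate carrier, fell from 23.8 to 13.7 CPM (-0.80), and Slc46a1, the proton-coupled folate transporter, rose from 2.93 to 4.86 CPM (0.74).

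Enzymes that use or degrade serine and glycine were likewise mixed. Of 9 tested enzymes of glycine cleavage and related steps, 2 were higher and 3 lower (37.6% and 38.0% of all tested genes). Gldc and Amt, both parts of the mitochondrial glycine cleavage system, went from 2.08 to 1.34 CPM (log2 fold change -0.63) and from 1.57 to 3.11 CPM (0.98). Of 11 tested users of serine and of its product cysteine, 5 were higher and 4 lower, beside the same 37.6% and 38.0%. Cbs, which joins serine to homocysteine, rose from 1.71 to 10.4 CPM (2.62, edgeR FDR = 1.11e-87), while Cth, which releases cysteine in the following step, fell from 30.7 to 15.0 CPM (-1.03). Gss, glutathione synthetase, which adds glycine, rose from 30.2 to 64.1 CPM (1.08).

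Around glutamate and proline, 4 of 15 tested genes were higher, 7 were lower and the median was -0.16. Among all tested genes 37.6% were higher and 38.0% lower. Glul, which makes glutamine from glutamate, fell from 54.4 to 18.5 CPM (log2 fold change -1.56, edgeR FDR = 3.58e-170). Ass1, the argininosuccinate synthase, rose from 44.5 to 155 CPM (1.80, edgeR FDR = 1.73e-140). Pepd, which frees proline from dipeptides, fell from 28.0 to 18.9 CPM (-0.57).

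Carriers of these amino acids fell more often than they rose, with 7 of 11 tested lower, 4 higher and a median of -0.39. Over all tested genes 38.0% were lower and 37.6% higher. The neutral amino acid exchangers Slc1a5 (147 to 82.9 CPM, log2 fold change -0.82, edgeR FDR = 3.74e-79) and Slc1a4 (74.1 to 47.5 CPM, -0.64) were lower. Slc6a9, the glycine transporter 1, was lower (53.4 to 33.0 CPM, -0.70), and so was Sfxn1, the mitochondrial serine carrier (76.2 to 46.5 CPM, -0.72). Slc38a2, which also carries proline, went from 413 to 316 CPM (-0.39). The exceptions included Slc25a22, a mitochondrial glutamate carrier, which rose from 15.4 to 33.9 CPM (1.14), and Sfxn3, which rose from 103 to 123 CPM (0.25).

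ATF4 is the transcription factor through which cells short of amino acids switch on Phgdh, Psat1, Shmt2, Mthfd2 and Asns. In a list of 22 genes of this arm and related amino acid enzymes, 17 were lower, 4 were higher and 1 did not pass. The median log2 fold change was -0.70 (38.0% of all tested genes were lower and 37.6% higher). Atf4 had 497, 474, 501 and 462 CPM untreated and 230, 249, 248 and 258 CPM treated, and its log2 fold change was -0.97 ± 0.0463 (SE, edgeR FDR = 2.88e-95). Asns, asparagine synthetase, had 362, 365, 372 and 361 CPM untreated and 148, 149, 149 and 146 CPM treated (-1.30, edgeR FDR = 5.51e-271). The groups were widely separate for both genes. Trib3 fell from 174 to 49.0 CPM (-1.83), Chac1 from 75.1 to 22.2 CPM (-1.75), Vldlr from 119 to 39.7 CPM (-1.59) and Gpt2 from 148 to 56.8 CPM (-1.38). The largest rise in the list was that of Ddit4, from 52.9 to 99.8 CPM (0.92). ATF4 is controlled mainly at translation, which RNA counts do not measure.

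The tRNA synthetases in the list differed by amino acid. The seryl enzyme Sars1 fell from 467 to 268 CPM (log2 fold change -0.80, edgeR FDR = 1.73e-109), and Eprs1, which charges glutamyl and prolyl tRNAs, fell from 549 to 365 CPM (-0.59, edgeR FDR = 2.19e-46). The glycyl enzyme Gars1 went from 544 to 582 CPM (0.10, edgeR FDR = 0.0199). Of 5 other regulators linked to serine synthesis, 4 were lower and 1 was higher (38.0% and 37.6% of all tested genes). Mycn went from 15.8 to 8.0 CPM (-0.97) and Hif1a from 670 to 503 CPM (-0.41), while Myc rose from 72.2 to 90.8 CPM (0.33).

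**Figure D3:**
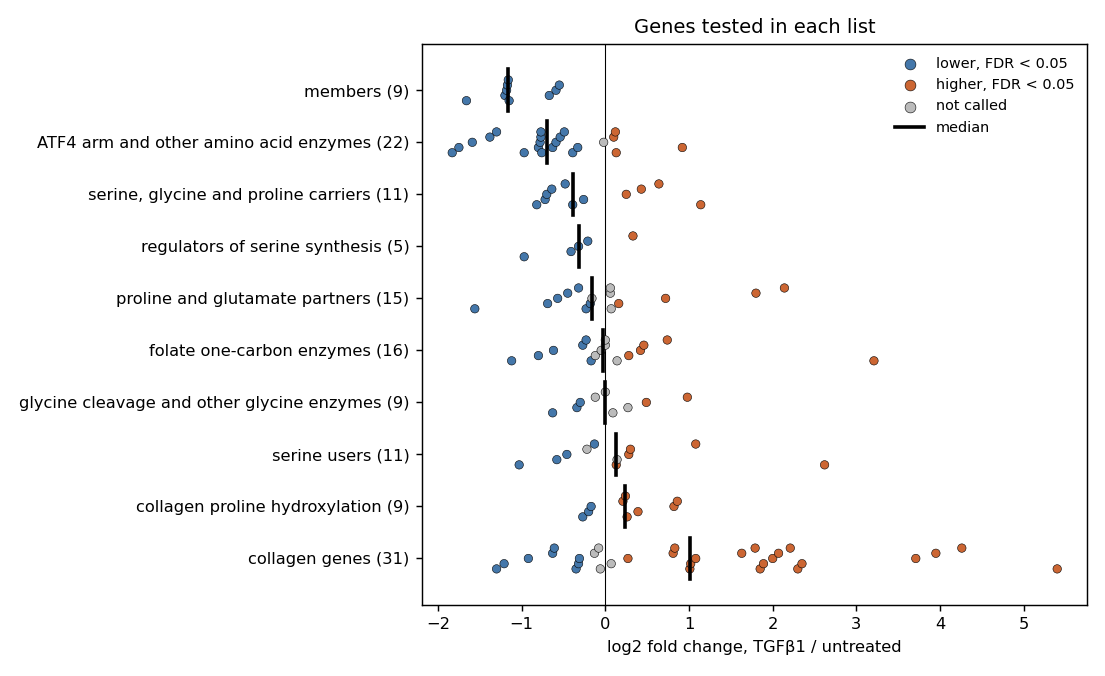
Log2 fold change (TGFβ1 over untreated) of every tested gene in 10 lists, coloured by call at an FDR under 0.05, with the list median as a bar and the number tested in brackets. The 9 enzymes have the lowest median (-1.16), the ATF4 arm follows (-0.70), and the collagen genes have the highest (1.01).

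The promoters were searched for the motifs of factors known to act on amino acid synthesis. RefSeq windows on GRCm38.p6 from 250 bases before to 50 after the start were present for all 9 genes. The composite ATF4 motif TGATGNAA, on either strand, was in the windows of 1 of the 9 genes, Pycr1, and in 3.97% of 32851 windows (2.28% of 13023 windows of tested genes). Of 18 genes of the ATF4 list with a window, 7 had it. Of these 7, Aars1, Asns, Chac1, Nupr1, Trib3 and Vldlr were lower with TGFβ1 and Gars1 was higher (log2 fold change 0.10, edgeR FDR = 0.0199). The E-box CACGTG was in the windows of 1 of the 9, Aldh18a1, and in 7.15% of all windows (9.79% of those of tested genes). The matches in Pycr1 at position -103 and Aldh18a1 at -59 from the start are printed because they were the only ones among the 9, and that of Chac1 at -193 is added as an example from the ATF4 list. All lie upstream of the RefSeq start and outside the annotated gene, are written in the gene's direction and have the motif in capitals, which in Chac1 is on the opposite strand. Their positions are chr11:120643814-120643881 (minus strand) for Pycr1, chr19:40588487-40588552 (minus) for Aldh18a1 and chr2:119351019-119351086 (plus) for Chac1.
Pycr1: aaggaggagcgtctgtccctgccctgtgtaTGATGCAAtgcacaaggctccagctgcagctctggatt
Aldh18a1: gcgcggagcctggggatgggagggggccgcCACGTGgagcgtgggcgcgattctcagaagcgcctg
Chac1: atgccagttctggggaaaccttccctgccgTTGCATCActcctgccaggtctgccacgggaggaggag
These letters were not found in the windows of the other members, which says nothing of sites elsewhere, and a match is not evidence of binding.

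Proliferation genes moved with the same groups. All 14 in the list were lower (38.0% of all tested genes were), and none of the 14 was at 0. Their summed level was 5043 to 5264 CPM in untreated and 2885 to 2966 CPM in treated libraries. Mki67 fell from 346 ± 14.8 to 96.9 ± 7.16 CPM (SD, n = 4 each, log2 fold change -1.84). The median of the list was -0.68, against -1.16 for the 9 enzymes. Growing cells use glycine and folate-bound carbon for purines and thymidylate, and thymidylate synthase, Tyms, was lower by less (135 to 112 CPM, -0.27). The part of proliferation in the fall of the 9 enzymes was not tested.

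Glycine and proline demand was approached from the collagen transcripts, because collagen is far richer in both residues than other proteins. The median protein of the tested genes is 6.27% glycine and 5.49% proline, whereas that of Col1a1 is 26.8% glycine and 19.0% proline. Coding exons show this, and 1 exon each of Col1a1, Col5a2 and Col3a1 is printed from GRCm38. These are 3 of the 5 collagen genes with the most encoded glycine. Each exon was picked as the richest in glycine and proline codons among exons of similar length, so it is not typical of its gene. The exons are in reading frame with every glycine (GGN) and proline (CCN) codon in capitals. They are exon 5 of 51 coding exons of Col1a1 (chr11:94938504-94938605, plus strand), exon 44 of 54 of Col5a2 (chr1:45388213-45388320, minus strand) and exon 31 of 51 of Col3a1 (chr1:45337426-45337533, plus strand).
Col1a1: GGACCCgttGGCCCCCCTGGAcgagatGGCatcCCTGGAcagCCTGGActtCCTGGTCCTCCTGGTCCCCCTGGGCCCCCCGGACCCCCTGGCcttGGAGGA
Col5a2: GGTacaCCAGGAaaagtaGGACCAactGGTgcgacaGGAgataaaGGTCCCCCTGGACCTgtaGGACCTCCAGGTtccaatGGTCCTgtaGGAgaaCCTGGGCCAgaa
Col3a1: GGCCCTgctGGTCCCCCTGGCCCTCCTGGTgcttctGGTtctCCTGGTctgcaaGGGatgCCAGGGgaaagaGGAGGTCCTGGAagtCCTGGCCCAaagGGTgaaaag
The Col1a1 exon has 13 glycine and 14 proline codons of 34, the Col5a2 exon 12 and 10 of 36, and the Col3a1 exon 13 and 10 of 36.

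Collagen genes rose more often than they fell while the 9 enzymes went down. Of 44 collagen genes, 31 had enough reads for a test, and 19 of these were higher, 8 were lower and 4 did not pass, with a median log2 fold change of 1.01 (37.6% of all tested genes were higher). The abundant ones did not follow that count. Col1a1 rose from 3459 ± 611 to 6057 ± 530 CPM (log2 fold change 0.81, edgeR FDR = 3.84e-14). Col5a2 fell (-0.31, edgeR FDR = 4.04e-14) and so did Col3a1 (-0.92, edgeR FDR = 1.95e-43), while Col4a1 rose (0.27) and Col1a2 did not pass (-0.08, edgeR FDR = 0.206). Summed over all collagen genes, the level was 27664 ± 2145 CPM untreated and 27167 ± 1134 CPM treated, and 3245 ± 266 and 3241 ± 154 CPM per kb.

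Transcript levels per length were then weighted by the glycine residues of each protein, giving the share of all encoded glycine that lies in collagen genes. That share was 15.04, 15.19, 14.36 and 13.21% in the untreated libraries and 13.93, 12.96, 14.18 and 14.18% in the treated ones. The groups overlapped, and the means of 14.4% ± 0.905 and 13.8% ± 0.58 (SD, n = 4 each) differed by -0.637 percentage points (p = 0.229, two-sided exact permutation test). The 97.1% exact interval of the difference was -2.23 to 0.973 points. For proline the share in collagen genes was 11.3% ± 0.718 untreated and 10.9% ± 0.469 treated, a difference of -0.448 points (interval -1.72 to 0.852, exact permutation p = 0.314). Both differences depended on single libraries. The glycine difference was -1.05 without untreated library 4, -0.389 without untreated library 2 and -0.353 without TGFβ1 library 2. The proline difference was -0.778, -0.251 and -0.22 without the same libraries and -0.295 without untreated library 1. Without untreated library 4 the groups did not overlap for either residue. The exact permutation p was then 0.0571 for each, the smallest possible with 4 against 3 libraries. The glycine interval reached up to 0.973 points, and it covers only the spread between technical replicates. In the same libraries Aldh18a1 and Pycr1 fell 1.47- and 1.60-fold, and Phgdh, Psat1, Psph and Shmt2 fell 2.22- to 3.17-fold. A link between collagen's share and the fall of these enzymes was not tested.

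The composition within collagen changed even though its total share did not pass the test. Col1a1 encoded 2.40% ± 0.387 of all glycine untreated and 3.91% ± 0.324 treated (SD, n = 4 each). Col5a2 went from 4.31% ± 0.11 to 3.24% ± 0.0258, and Col3a1 from 1.69% to 0.83%. Col1a1 thus replaced Col5a2 as the largest source of encoded glycine among the collagen genes. These shares describe RNA, and collagen secretion, turnover and free amino acid levels were not measured.

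**Figure D4:**
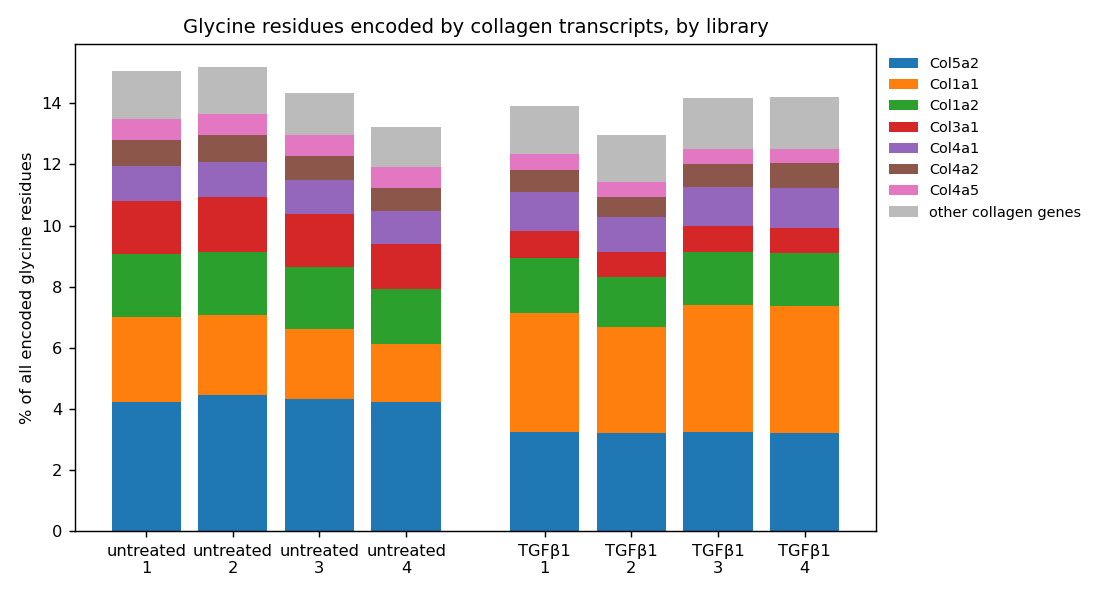
Percent of all encoded glycine residues that lie in collagen transcripts in each library, stacked by gene, with the 7 collagen genes of largest share drawn separately and the rest in grey. The stacks reach 13.21 to 15.19% untreated and 12.96 to 14.18% with TGFβ1, while the Col1a1 layer grows from a mean of 2.40 to 3.91% and the Col3a1 layer shrinks from 1.69 to 0.83%.

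The enzymes that hydroxylate collagen proline, which act on new chains before the helix forms, rose more often than they fell. Of 9 tested, 6 rose and 3 fell, with a median log2 fold change of 0.24. Of all tested genes 37.6% were higher and 38.0% lower. In the test beyond a log2 fold change of 0.5, only 1 of the 9 stayed higher. P4hb, the shared subunit of prolyl 4-hydroxylase, rose from 1250 to 2204 CPM (0.82), whereas the catalytic subunits were split, with P4ha1 (654 to 581 CPM, -0.17) and P4ha2 (168 to 139 CPM, -0.27) lower and P4ha3 (76.0 to 91.4 CPM, 0.26) higher. The helix-modifying P3h1 (0.39) and its partner Crtap (0.24) rose. P4hb is also protein disulfide isomerase, with roles outside collagen.

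Across the alternative tests, scalings and filters and with each library left out in turn, the 9 enzymes were lower each time, apart from the threshold test on Aldh18a1 above. By edgeR's quasi-likelihood test, a more conservative choice, their FDRs ran from 1.16e-13 for Psat1 to 0.000533 for Prodh.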

How the data were processed

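Poly(A) RNA of untreated and TGFβ1-treated SV-LECs was sequenced in 8 libraries (TruSeq stranded, single reads of 75 bases). The authors deposited raw read counts per gene for 55471 genes, mapped to GRCm38, with no normalization. The submitters' processing notes name STAR 2.7.3a, featureCounts 1.5.1 and bcl2fastq 2.20.0.422. The annotation release and the strand setting of counting are not given in the sources used here, so reads from overlapping genes on opposite strands may not be separated. All columns of the table were mapped to samples by name, and 0 columns were left unused.

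The statistics used edgeR 4.0.16 under R 4.3.3 (filterByExpr, TMM, estimateDisp, glmFit and glmLRT). The study's methods name edgeR and its likelihood ratio test, and the filter, scaling and dispersion steps were chosen here. Benjamini-Hochberg FDRs were taken over 13818 genes with a threshold of 0.05. Totals were 18952504 to 26386941 counts, and the common biological coefficient of variation was 0.0523. CPM used normalized library sizes. Libraries of a group differed from each other by more than sampling noise (chi-square per degree of freedom 2.37 to 7.84), so none was counted as a duplicate. The quasi-likelihood test, glmTreat at 0.5, DESeq2 1.42.0, other scalings and filters, a replicate block and each library left out were alternatives. The code was tested on simulated data, where the likelihood ratio test had more false calls than the quasi-likelihood test. The 95% intervals take the normal approximation from the SE.

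Encoded residues were counts divided by exon length and multiplied by the residues of each protein, translated from GENCODE M21 transcripts (55230 genes matched), and genes with a protein held 98.6 to 98.8% of counts. Shares were compared by two-sided exact permutation over 70 regroupings, whose smallest p is 0.0286, and intervals list the shifts not rejected. Promoters came from RefSeq (GRCm38.p6). The 9 genes and all lists were chosen with earlier results of these data known. Genes named are the 9 enzymes, close paralogs, up to 4 genes of each list with the largest passing change, genes needed to describe a role, and the 5 collagen genes with the most encoded glycine. Protein sequences were not used here. Some genes that this rule names are not reported here.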

Additional observations from a re-analysis of the deposited data

How the results depend on the processing

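All 9 enzymes were lower in every alternative, and 9 were called lower in each except the test beyond a log2 fold change of 0.5, where Aldh18a1 (-0.55, FDR = 0.0932, edgeR) did not pass. That stricter test left 2342 higher and 1807 lower genes over all. In the lists it left 2 higher and 3 lower folate enzymes, 1 and 0 glycine enzymes, and 2 and 1 serine users. For glutamate and proline partners the numbers were 3 higher and 2 lower, and for carriers 2 and 4. The ATF4 arm kept 1 higher and 12 lower genes, and the regulators 0 and 1. Hydroxylation genes numbered 1 higher and 0 lower, and collagen genes 18 higher and 4 lower. Higher glycine enzymes numbered 1 instead of 2 with DESeq2, without a filter, with total counts and at an FDR of 0.01, and 1 to 2 with single libraries left out (1 without TGFβ1 library 1, 2 or 3). Higher genes of the ATF4 arm numbered 1 instead of 4 without a filter, with total counts and at an FDR of 0.01, and 2 to 4 with libraries left out (2 without untreated or TGFβ1 library 1). The median of all genes was -0.074 with total counts and 0.074 without a filter.

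Replicate numbers did not pair the samples (correlations of deviations -0.193 to -0.0336). With a replicate block, 5075 genes were higher and 5077 lower, and all 9 enzymes stayed lower. Glycine made up 7.44% of encoded residues untreated and 7.47% treated, and the difference of 0.0291 points turned to -0.0257 without division by length and to -0.00244 without untreated library 4 (range with libraries left out -0.00244 to 0.0528). Without collagen genes the differences were 0.0639 for glycine and 0.103 for proline (exact permutation p = 0.0286 each). The serine difference (0.0522) and the alanine difference (-0.0513) had exact p = 0.125 with the replicate block, the smallest possible there. With a library left out they ran from 0.0486 to 0.0578 and from -0.0603 to -0.0415 at the smallest possible p of 0.0571. Alanine without mitochondrial and ribosomal protein genes was -0.0424 (p = 0.0571, exact permutation). With libraries left out, collagen's share differed by -1.05 to -0.353 points for glycine and by -0.778 to -0.22 points for proline. Depth limits Prodh most, at 6 to 36 counts a library.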

Other observations

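Over all encoded residues, the share of serine was 7.47% ± 0.0123 untreated and 7.52% ± 0.00856 treated, and that of alanine was 7.19% ± 0.0219 and 7.14% ± 0.0267 (SD, n = 4 each). Both differences had the smallest p that 4 against 4 libraries can give (0.0286, two-sided exact permutation test, with 4 residues compared and no adjustment). Proline was at 6.29% ± 0.0608 and 6.38% ± 0.0395 (exact permutation p = 0.0857). Outside the collagen genes, glycine went from 6.63% to 6.70% and proline from 5.81% to 5.91% of encoded residues.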
